A study of Mus musculus with 16 samples.

Results

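Sprr1a, Sprr2g, Avil, Cdsn and Lad1 are 5 mouse genes taken from a table of 36528 genes because their RNA was low in uncrushed retina and much higher after the optic nerve was crushed. They were found by matching the Entrez identifiers of the table to gene symbols, and all 5 were present. They were selected on their levels before and after crush, so those levels are given as a description and without a test. The effect of an inhibitor of the kinase DLK on these genes was not itself used to choose them. It was tested, but Sprr2g is only described. These tests are not independent of the choice, because the libraries compared also gave the levels before and after crush.

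Crushing the optic nerve cuts through the axons of retinal ganglion cells, whose signals reach the brain along that nerve. Damage to an axon activates dual leucine zipper kinase (DLK, gene Map3k12), which signals through the kinase JNK to transcription factors such as Jun and Atf3 in the nucleus of the neuron. Sprr1a, small proline-rich protein 1A, is best known as a precursor of the cornified envelope of keratinocytes, and it is also known to be switched on in neurons whose axons have been cut. Sprr2g belongs to the same family. Cdsn encodes corneodesmosin, an adhesive protein of the cell junctions of cornified skin, and Lad1 encodes ladinin 1, an anchoring filament protein of basement membranes under epithelia. Avil encodes advillin, an actin-binding protein of the villin family that is known from peripheral sensory neurons and tuft cells.

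The study measured poly(A) RNA of mouse retina 3 days after the crush in 16 libraries that form 4 groups. The groups were uncrushed vehicle (n = 3), crushed vehicle (n = 3), uncrushed DLKi (n = 5) and crushed DLKi (n = 5), where DLKi stands for GNE-3511, a small-molecule inhibitor of DLK, and the vehicle was MCT. The dose of GNE-3511 was 75 mg/kg, given 60 h and 68 h after the injury, so the injury response ran without inhibitor until the first dose. Strain, age and sex of the mice are not among the labels used here, and the labels do not say which retinas came from the same mouse, so a p-value here reflects only the spread among the libraries, which may be partly technical.

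Libraries held 22.35 to 44.75 M counted reads, and rhodopsin, the visual pigment of rods, took 3.078% to 4.285% of them. On the second principal component of all genes (17.3% of the variance) uncrushed vehicle 1 (at 49.4) and crushed vehicle 3 (at 34.3) stood apart from the other vehicle libraries; they were also the 2 vehicle libraries with the fewest reads. The results for the 5 genes are therefore also given without these 2 libraries where that changes a call. The whole retina was extracted, so fewer cells of a type and less RNA per cell cannot be told apart.

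The 5 genes lie at 4 places in the genome (build GRCm38). Sprr1a (Entrez 20753) spans chr3:92483954-92485881 and Sprr2g (Entrez 20761) spans chr3:92373915-92375229. Both sit in the epidermal gene cluster, 108725 bases apart with 7 RefSeq genes between them, 6 of which are SPRR genes. RefSeq lists Sprr2g as a transcribed pseudogene. Avil (Entrez 11567) spans chr10:127000065-127020994, Cdsn (Entrez 386463) spans chr17:35543101-35557180 and Lad1 (Entrez 16763) spans chr1:135818598-135833341. Counts cover whole gene models, exons included, and the library kit does not mark strand. Of the 50-base windows in their transcripts, the length of a read, 100% matched no other gene exactly in Sprr1a, Sprr2g, Cdsn and Lad1, and 96.5% in Avil. The shared Avil windows belong to Tsfm, a gene on the opposite strand that overlaps 4.86% of the exon bases of Avil.

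The DNA just upstream of 4 of the genes was searched because the transcription factors named above read short motifs in such sequence, and the windows of 3 genes that held a match are shown. The windows are the 250 bases before a RefSeq transcription start (GRCm38.p6, read 5′ to 3′ on the strand of the gene), and Sprr2g had none in the table used. The start used for Avil lies inside the gene span given above, and sequence before the first base of that span was not searched. Capitals mark matches, on either strand, to 4 motifs: AP-1, the site of Jun and its partners (TGANTCA), the cAMP response element CRE (TGACGTCA), a STAT site (TTCNNNGAA) and the ATF4 composite site (TGATGNAA). The windows were chr3:92485882-92486131 on the minus strand for Sprr1a, chr10:127000459-127000708 on the plus strand for Avil and chr17:35542851-35543100 on the plus strand for the first of 2 starts of Cdsn.
Sprr1a: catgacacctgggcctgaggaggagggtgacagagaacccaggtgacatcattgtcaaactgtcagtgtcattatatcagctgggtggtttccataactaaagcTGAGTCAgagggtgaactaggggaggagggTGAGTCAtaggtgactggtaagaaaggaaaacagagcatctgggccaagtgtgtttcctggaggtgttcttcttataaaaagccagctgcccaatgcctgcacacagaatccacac
Avil: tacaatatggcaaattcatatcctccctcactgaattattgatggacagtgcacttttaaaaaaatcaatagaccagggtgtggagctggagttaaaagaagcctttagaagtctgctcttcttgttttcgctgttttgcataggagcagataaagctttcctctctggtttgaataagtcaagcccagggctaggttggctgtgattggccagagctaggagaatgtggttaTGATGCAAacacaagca
Cdsn start 1: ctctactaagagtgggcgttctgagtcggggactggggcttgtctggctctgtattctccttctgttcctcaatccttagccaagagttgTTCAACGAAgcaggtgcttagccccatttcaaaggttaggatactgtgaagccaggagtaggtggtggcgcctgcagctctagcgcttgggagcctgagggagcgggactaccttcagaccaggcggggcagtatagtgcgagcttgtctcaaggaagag
Sprr1a had 2 AP-1 matches, both TGAGTCA, from -146 to -140 and from -116 to -110 relative to the start. Among 32851 promoter windows of this length, 6.75% held at least 1 AP-1 match and 0.338% held at least 2. Of 13 other SPRR genes with a window, 8 held an AP-1 match and 1, Sprr2k (named after its value was seen), held 2. Avil held an ATF4 composite match, TGATGCAA, from -17 to -10, and 3.45% of all windows hold one. The first start of Cdsn held a STAT match, TTCAACGAA, from -160 to -152, against 7.02% of all windows. The second start of Cdsn and the window of Lad1 held none of the 4 motifs, and no CRE was found in any of the windows (1.55% of all windows hold one). The motif map shows these positions.

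**Figure D1:**
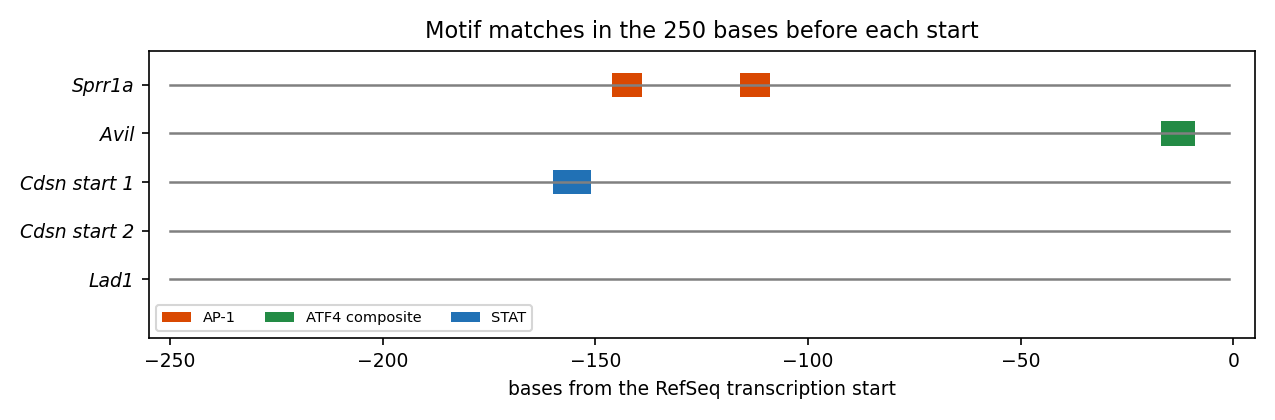
Position of motif matches (coloured boxes) in the 250 bases before the RefSeq transcription start of Sprr1a, Avil, Cdsn (2 starts) and Lad1; the x axis is the distance from the start in bases. Sprr1a has 2 AP-1 boxes, Avil has an ATF4 composite box next to its start, the first start of Cdsn has a STAT box, and the lowest rows are empty.

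Sprr1a was the most abundant of the 5 genes after crush and among the least abundant before it. Its level, in the authors' nRPKM (reads per gene length and library depth, adjusted by a size factor per library), was 0.341, 0.111 and 0.093 in uncrushed vehicle libraries 1 to 3. In crushed vehicle libraries 1 to 3 it was 29.513, 21.178 and 23.874. Every crushed vehicle retina was far above every uncrushed one, which rested on 3 to 7 Sprr1a reads each. With the inhibitor it was 0.065, 0.05, 0.084, 0.177 and 0.034 in uncrushed DLKi libraries 1 to 5. In crushed DLKi libraries 1 to 5 it was 15.348, 18.455, 9.844, 9.495 and 11.128. These groups did not overlap either, and libraries 1 and 2 were the highest of the crushed DLKi retinas. The fitted log2 difference between crushed and uncrushed retina was 7.25 ± 0.39 (SE) with vehicle and 7.22 ± 0.32 with the inhibitor. The vehicle value was 7.87 without uncrushed vehicle 1 and 7.89 without the 2 vehicle libraries that stood apart.

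Sprr2g was rarely read outside the crushed vehicle retinas. Crushed vehicle libraries 1 to 3 had 20, 33 and 13 Sprr2g reads, or 0.871, 1.188 and 0.662 nRPKM. Uncrushed vehicle libraries 1 to 3 had 0, 0 and 1 reads, and uncrushed DLKi libraries 1 to 5 had 0, 0, 1, 0 and 0. Crushed DLKi libraries 1 to 5 had 2, 3, 0, 2 and 1 reads, or 0.08, 0.109, 0, 0.081 and 0.036 nRPKM. The crushed vehicle retinas thus stood above all 13 others, and with the inhibitor the crushed and uncrushed retinas overlapped. Pooled and scaled to library size, crushed exceeded uncrushed 69.4-fold with vehicle (66 against 1 read, exact 95% interval 12 to 2780) and 8.74-fold with the inhibitor (8 against 1 read, 1.17 to 388). These intervals cover counting error only.

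Avil differed from the SPRR genes in having a steady low level before injury. It was 0.304, 0.279 and 0.194 nRPKM in uncrushed vehicle libraries 1 to 3 and 1.563, 1.24 and 1.636 in the crushed ones. It was 0.215, 0.223, 0.25, 0.212 and 0.304 in uncrushed DLKi libraries 1 to 5 and 1.483, 1.921, 1.413, 1.432 and 1.434 in the crushed ones. Crushed and uncrushed retinas did not overlap under either treatment, and crushed DLKi 2 was the highest of all. The log2 difference between crushed and uncrushed was 2.53 ± 0.19 with vehicle and 2.68 ± 0.15 with the inhibitor.

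Cdsn, the corneodesmosin gene, had a similar low level before injury. It was 0.25, 0.143 and 0.221 nRPKM in uncrushed vehicle libraries 1 to 3 and 1.453, 1.082 and 1.471 in the crushed ones. It was 0.213, 0.272, 0.313, 0.143 and 0.243 in uncrushed DLKi libraries 1 to 5 and 1.075, 1.089, 1.036, 1.098 and 0.852 in the crushed ones. Crushed retinas again stood clear of uncrushed ones, with crushed vehicle 1 and 3 the highest and crushed DLKi 5 the lowest among the crushed. The log2 difference between crushed and uncrushed was 2.73 ± 0.25 with vehicle and 2.11 ± 0.18 with the inhibitor.

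Lad1 had the highest level of the 5 genes in uncrushed retina. It was 0.527, 0.639 and 0.598 nRPKM in uncrushed vehicle libraries 1 to 3 and 3.536, 3.383 and 3.501 in the crushed ones. It was 0.352, 0.444, 0.32, 0.359 and 0.442 in uncrushed DLKi libraries 1 to 5 and 3.49, 4.865, 1.945, 2.367 and 2.219 in the crushed ones. The 3 crushed vehicle retinas were close together (coefficient of variation 2.3%), whereas the crushed DLKi retinas were spread on both sides of them (40.6%). The log2 difference between crushed and uncrushed was 2.55 ± 0.28 with vehicle and 2.96 ± 0.22 with the inhibitor.

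Crushed libraries did not overlap uncrushed ones for 5 of 5 genes with vehicle and for 4 of 5 with the inhibitor, Sprr2g being the exception; among all 19391 tested genes, 8.13% and 3.4% were higher without overlap. Because this contrast chose the genes, nothing is read from these counts. "Low in uncrushed retina" covers different cases: Sprr1a had 1 to 7 reads and Sprr2g at most 1 per uncrushed library, while Avil (33 to 53 reads), Cdsn (17 to 39) and Lad1 (41 to 87) were detected in every one. All 5 genes passed the filter on low counts, which asks for a CPM (count scaled to library size) of about 0.291 in at least 3 libraries. Avil, Cdsn and Lad1 met that level in all 16 libraries. Sprr1a met it in the 8 crushed libraries and 1 uncrushed library, and Sprr2g met it in the 3 crushed vehicle libraries alone.

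The order of the levels per gene length differed before and after injury. In crushed vehicle retina the means were 24.9 ± 4.25 nRPKM for Sprr1a (SD, n = 3), 3.47 ± 0.08 for Lad1, 1.48 ± 0.21 for Avil, 1.34 ± 0.22 for Cdsn and 0.907 ± 0.265 for Sprr2g. Avil and Cdsn overlapped there, as did Cdsn and Sprr2g. In crushed DLKi retina the order was the same, at 12.9 ± 3.9 (SD, n = 5), 2.98 ± 1.21, 1.54 ± 0.217, 1.03 ± 0.102 and 0.061 ± 0.0429 nRPKM, and no neighbours overlapped. In uncrushed vehicle retina Lad1 led with 0.588 ± 0.057 nRPKM, followed by Avil (0.259 ± 0.0578), Cdsn (0.205 ± 0.0553), Sprr1a (0.182 ± 0.138) and Sprr2g (0.0126 ± 0.0217). Lad1 stood clear of the others there, and Avil, Cdsn and Sprr1a overlapped.

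**Figure D2:**
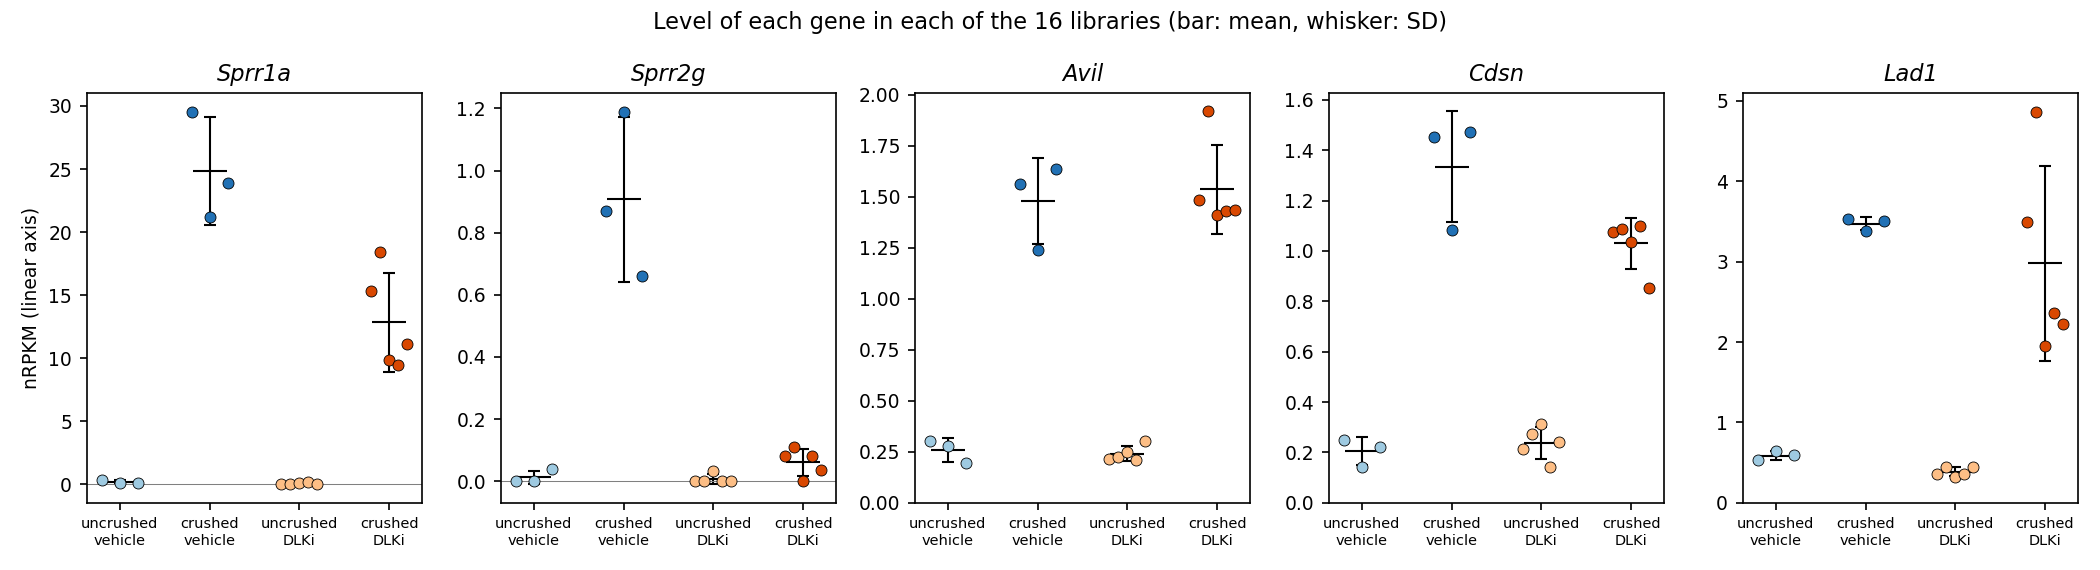
Level of each gene (nRPKM, linear axis, a separate scale per gene) in every library of the 4 groups; the black bar is the group mean and the whisker 1 SD. Sprr1a and Sprr2g are lower in all 5 crushed DLKi libraries than in all 3 crushed vehicle libraries, while Avil overlaps between these groups.

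The question of the drug groups is how far the injury response depends on DLK. In crushed retina Sprr1a was lower with the inhibitor than with vehicle, and Avil, Cdsn and Lad1 did not pass the test. Sprr2g was lower as well, but it entered the tested genes only through the crushed vehicle group, the high arm of this comparison. Its values are therefore described below without a p-value. Of all tested genes 0.505% passed in this comparison, 0.376% as lower and 0.129% as higher (edgeR quasi-likelihood test, adjusted p at most 0.05). Avil, Cdsn and Lad1 each had an unadjusted p above 0.05. The median log2 change of all tested genes was 0.008.

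Sprr1a was 0.518 of its vehicle level, a log2 change of -0.95 ± 0.20 (95% interval -1.38 to -0.52, adjusted p = 0.0435, edgeR quasi-likelihood test). The values given above do not overlap: 9.495 to 18.455 nRPKM in crushed DLKi retina lay below 21.178 to 29.513 in crushed vehicle retina, and 4.87% of all tested genes were lower without overlap in this comparison. An exact two-sided permutation test on log2 nRPKM gave p = 0.0357, the smallest that 3 against 5 libraries allow, and DESeq2 gave an adjusted p of 0.00298. The edgeR call sat close to the threshold, and the choice of the gene for a high level after crush also used these crushed libraries. The adjusted p was 0.207, 0.079 and 0.176 without crushed vehicle 1, 2 or 3, and 0.0574, 0.136, 0.0724 and 0.0974 without crushed DLKi 1, 3, 4 or 5. It was 0.0622 without uncrushed vehicle 2, and 0.0561, 0.0616 and 0.0577 without uncrushed DLKi 1, 2 or 3, libraries that enter only the estimate of the spread and the set of genes tested. In those fits the log2 change stayed between -1.05 and -0.80. It was -0.97 (adjusted p = 0.106) without the 2 vehicle libraries that stood apart and -0.95 (adjusted p = 0.0793) when only the crushed groups were fitted.

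Sprr2g was lower by far more, with a fitted log2 change of -3.80 ± 0.48 (95% interval -4.81 to -2.79), given as a description only. This rests on 8 reads in 5 crushed DLKi libraries against 66 in 3 crushed vehicle libraries, a ratio scaled to library size of 0.0647 (exact 95% interval 0.0268 to 0.135, counting error only). All crushed DLKi libraries, with 0 to 3 reads, were below all crushed vehicle libraries, with 13 to 33. With no filter on low counts the log2 change was also -3.80. Leaving out each library in turn gave log2 changes of -4.11 to -3.51.

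Avil, the villin family gene, did not differ detectably (log2 change 0.06 ± 0.15, 95% interval -0.25 to 0.37, adjusted p = 0.891, edgeR). The interval leaves room for a change of that size in either direction. Cdsn had a log2 change of -0.37 ± 0.18 (95% interval -0.76 to 0.02, adjusted p = 0.382), and its groups overlapped because crushed vehicle 2 was within the range of the crushed DLKi libraries. Lad1 had a log2 change of -0.22 ± 0.22 (95% interval -0.68 to 0.24, adjusted p = 0.68), with 3 crushed DLKi retinas below all vehicle ones and 1 above them all.

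**Figure D3:**
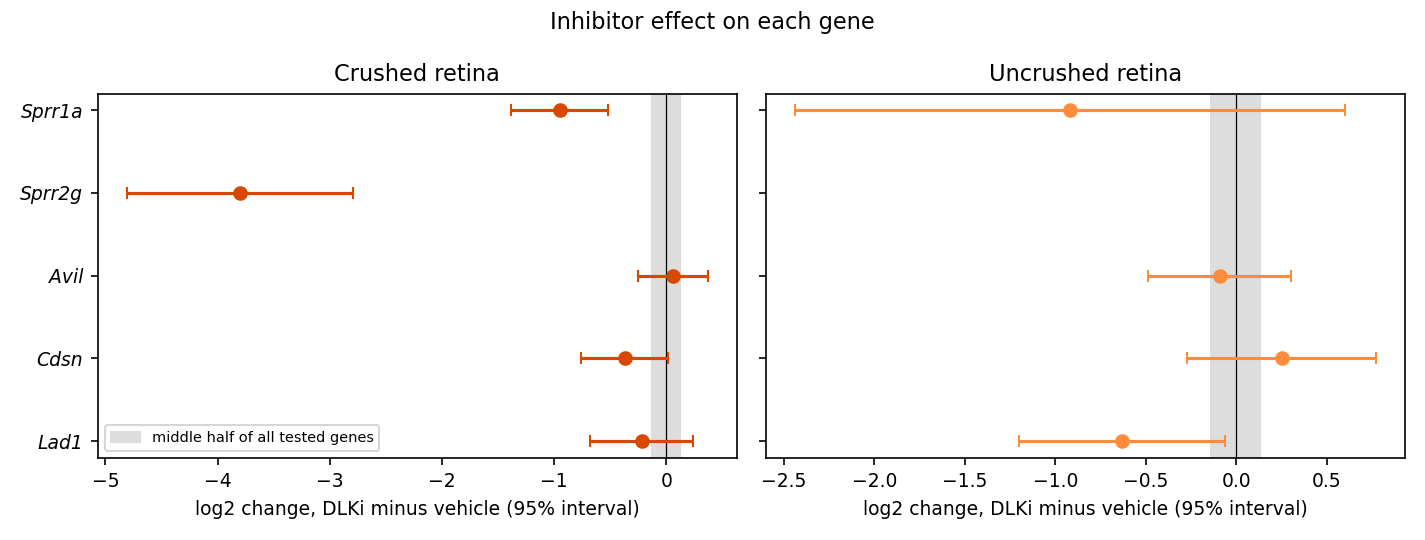
Log2 change between DLKi and vehicle (x axis, point with 95% interval) for each gene in crushed and uncrushed retina; the grey band spans the interquartile range of all tested genes, and Sprr2g is not drawn for uncrushed retina, where it had 1 read per group. The intervals of Sprr1a and Sprr2g in crushed retina lie wholly below 0, and those of Avil, Cdsn and Lad1 there include 0.

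In uncrushed retina 0 of the genes Sprr1a, Avil, Cdsn and Lad1 passed (edgeR; 0 by DESeq2), against 0.629% of all tested genes. Lad1 alone had an unadjusted p under 0.05. Sprr1a had too few reads there for its not passing to say much. Lad1 was lower with the inhibitor (log2 change -0.63 ± 0.27, 95% interval -1.20 to -0.06, adjusted p = 0.249, edgeR), with all 5 DLKi libraries at 0.32 to 0.444 nRPKM and all 3 vehicle libraries at 0.527 to 0.639. Such a lower level without overlap was seen in 4.31% of all tested genes. Sprr1a had a log2 change of -0.92 ± 0.72 (95% interval -2.44 to 0.60, adjusted p = 0.53) on 14 reads per group. Without uncrushed vehicle 1, the library with 7 of the 14 vehicle reads, this value was -0.30. Avil (-0.09 ± 0.19, adjusted p = 0.831) and Cdsn (0.25 ± 0.25, adjusted p = 0.628) did not differ detectably, and Sprr2g had 1 read in each group.

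The difference between the crush effects with inhibitor and with vehicle is the test of whether the response to injury differed with the inhibitor. This difference is built from the crush effects on which the genes were chosen. Of Sprr1a, Avil, Cdsn and Lad1, 0 passed in edgeR (0 at an unadjusted p of 0.05, 0 by DESeq2), against 0.0103% of all tested genes. For Sprr1a the difference was -0.03 ± 0.50 (95% interval -1.09 to 1.03). Its log2 changes in crushed and uncrushed retina were of similar size, the latter on 14 reads per group, and this interval includes the whole change seen in crushed retina. Cdsn had a difference of -0.62 ± 0.31 (95% interval -1.27 to 0.02, unadjusted p = 0.06 and adjusted p = 1.0 in edgeR). Avil (0.15 ± 0.24) and Lad1 (0.41 ± 0.35) had adjusted p-values of 1.0 as well. For Sprr2g the fitted difference was -3.18 ± 1.2 (95% interval -5.7 to -0.66), given as a description only. Sprr2g entered the tested genes only through the crushed vehicle group. Its difference rests on 1 read in each uncrushed group and depends on how the fit treats such low counts. The quasi-likelihood test (unadjusted p = 0.192, edgeR) and this interval, built from the SE of both crush effects, disagree, so nothing is read from either.

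The 5 genes were then compared with one another inside each crushed library. Over 10 pairs, the log2 ratio of 2 genes (nRPKM + 0.1) was compared between 5 DLKi and 3 vehicle libraries. An exact two-sided permutation test was used, whose smallest possible p is 0.0357. The pairs that reached it had a Benjamini-Hochberg adjusted p of 0.051, so no pair passed 0.05. That adjusted value depends on how many of the 10 pairs reached the smallest p, and pairs with Sprr2g were among them. The ratio of Sprr1a to Avil was 3.98 ± 0.18 on the log2 scale with vehicle (SD, n = 3) and 2.94 ± 0.29 with the inhibitor (n = 5), a difference of -1.03 without overlap (exact p = 0.0357). The ratio of Sprr1a to Lad1 differed by -0.69 without overlap (exact permutation p = 0.0357). Those of Sprr2g to Avil, Cdsn and Lad1 differed by -2.71, -2.32 and -2.36 without overlap, given here as a description. Both SPRR genes thus had a lower share relative to Avil and Lad1 in every crushed DLKi retina than in any crushed vehicle retina. The ratio of Avil to Cdsn differed by 0.39 without overlap (exact p = 0.0357), that of Sprr1a to Cdsn by -0.64 (exact p = 0.0714), that of Avil to Lad1 by 0.35 (exact p = 0.25) and that of Cdsn to Lad1 by -0.04 (exact p = 0.929).

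The 2 SPRR genes are compared here as a description only, because Sprr2g entered the tested genes through the crushed vehicle group alone. Crushed vehicle libraries 1 to 3 held 2.43, 4.62 and 2.28 Sprr2g reads per 100 Sprr1a reads. Crushed DLKi libraries 1 to 5 held 0.427, 0.485, 0, 0.699 and 0.266. Every DLKi retina was below every vehicle retina. On the log2(nRPKM + 0.1) scale the ratio of Sprr1a to Sprr2g differed by 1.68, but with a pseudocount of 1, which is above most Sprr2g levels, the difference was -0.09.

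Relatives of the 5 genes were counted as well, and most SPRR genes had no reads. Each family held few tested genes, so nothing is read from the numbers called. Among 16 SPRR genes, Sprr1a held 97.91% and Sprr2g 1.78% of 4268 reads over all libraries. Of the 14 others, 12 had 0 reads in every library (a count of 0 allows up to 3 reads, or a pooled CPM of 0.00548), Sprr2a3 had 12 reads and Sprr4 had 1 (both named after their values were seen), and 0 of the 14 reached the tested genes. Of Sprr2a3's reads 9 came from crushed and 3 from uncrushed libraries. Of 31 other cornified envelope genes present in the files, 14 had 0 reads in every library and 9 were tested. With vehicle 0 of these 9 were called higher or lower after crush (edgeR; 1 at an unadjusted p under 0.05, 0 by DESeq2), a comparison in which 1.77% of all tested genes were higher and 0.861% lower, and the median log2 change was -0.06 against -0.003 for all tested genes. The closest was the keratin gene Krt1, at 0.45 ± 0.16 (adjusted p = 0.213).

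Cdsn has the desmosome genes for relatives. Of 10 tested desmosome and corneodesmosome genes, 0 were called after crush with vehicle (edgeR; 1 at an unadjusted p under 0.05, 0 by DESeq2; median -0.08), and with the inhibitor 1 of 10 was called, against 3.29% of all tested genes as higher and 2.04% as lower. That gene was Dsp, desmoplakin, which links desmosomes to keratin filaments (log2 change 1.60 ± 0.42, adjusted p = 0.0312, edgeR). Its call was lost without crushed DLKi 3 or 5, the retinas rich in surface epithelium markers described below, and without uncrushed DLKi 2, 3 or 5. Around Lad1, 0 of 10 tested basement membrane zone genes were called after crush with vehicle (edgeR; 2 at an unadjusted p under 0.05, 1 by DESeq2; median 0.12) and 0 of 10 with the inhibitor (3 at an unadjusted p under 0.05, 0 by DESeq2; median 0.05). Lamb3, a chain of the laminin that anchors epithelia, was closest with vehicle at 1.23 ± 0.35 (adjusted p = 0.0828). After crush 1.77% of all tested genes were called higher with vehicle and 3.29% with the inhibitor. Around Avil, 1 of 7 other villin and gelsolin family genes was called higher under each treatment. This was Capg, an actin-capping protein of macrophages and other cells, at 0.90 ± 0.23 with vehicle (adjusted p = 0.048) and 1.23 ± 0.18 with the inhibitor (adjusted p = 2.96e-04, edgeR); the vehicle call was lost in 14 of the 16 fits that left out 1 library, staying only without crushed DLKi 1 or 3. In the inhibitor comparison of crushed retina 0 genes of these families were called in edgeR; at an unadjusted p under 0.05 the numbers were 1 of 9 cornified envelope, 2 of 10 desmosome, 3 of 7 villin family and 1 of 10 basement membrane zone genes, and DESeq2 called 1, a villin family gene.

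A list of known axon injury genes, chosen with earlier results of these data known, was counted beside the 5 genes. Of 34 tested, 15 were higher after crush with vehicle (median log2 change 0.66), against 1.77% of all tested genes. With the inhibitor 18 were higher and 1 lower (median 0.54), against 3.29% and 2.04% of all tested genes. Ecel1, a membrane peptidase induced in injured neurons, rose by 5.97 ± 0.27 with vehicle (adjusted p = 2.67e-10, edgeR) and by 6.02 ± 0.20 with the inhibitor (adjusted p = 3.14e-12). The transcription factor gene Sox11 rose by 3.09 ± 0.23 with vehicle (adjusted p = 4.65e-07). In crushed retina 4 of the 34 were lower with the inhibitor and 0 higher (median -0.16), against 0.376% and 0.129% of all tested genes. They were Atf3 (log2 change -1.26 ± 0.17, adjusted p = 0.00226), the neuropeptide gene Adcyap1 (-0.97 ± 0.13, adjusted p = 0.00226), the cytokine receptor gene Tnfrsf12a (-0.81 ± 0.16, adjusted p = 0.0277) and the microtubule regulator Stmn4 (-0.76 ± 0.15, adjusted p = 0.0287, edgeR). Without any 1 of the 3 crushed vehicle libraries, or without crushed DLKi 5, the number was 2. In uncrushed retina 2 of the 34 were also called lower with the inhibitor, Stmn4 (-1.09 ± 0.16, adjusted p = 0.00535) and Jun (-0.69 ± 0.15, adjusted p = 0.0402, edgeR). Of all tested genes 0.629% were called there in either direction.

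Among the AP-1, ATF and STAT factors whose motifs were searched, 8 of 13 tested genes were higher after crush with vehicle (median log2 change 0.94) and 8 of 13 with the inhibitor (median 0.66). Of all tested genes 1.77% were called higher with vehicle and 3.29% with the inhibitor. Atf3, a partner of Jun, rose by 2.78 ± 0.21 with vehicle (adjusted p = 4.65e-07, edgeR) and by 2.01 ± 0.16 with the inhibitor (adjusted p = 6.44e-07). Stat3, which relays cytokine signals, rose by 1.12 ± 0.11 with vehicle (adjusted p = 7.74e-06) and by 1.16 ± 0.08 with the inhibitor (adjusted p = 1.79e-07). In crushed retina 2 factors were called lower with the inhibitor, against 0.376% of all tested genes, and 0 were called higher. They were Atf3 and Jund, another AP-1 subunit (log2 change -0.52 ± 0.11, adjusted p = 0.0342, edgeR). The number fell to 1 in 10 of the 16 fits that left out 1 library: uncrushed vehicle 2, any crushed vehicle library, uncrushed DLKi 2 or 4, or crushed DLKi 1, 2, 3 or 5.

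Markers of the cells that lose their axons, and of other cells that a dissected retina can hold, were set beside the 5 genes. Summed retinal ganglion cell markers (20 genes) were 1360 to 1910 CPM in uncrushed vehicle and 866 to 1220 in crushed vehicle retina, and 1700 to 2230 and 1140 to 1350 with the inhibitor. With vehicle 13 of 20 were lower after crush, against 0.861% of all tested genes, and with the inhibitor 14 of 20, against 2.04%. In crushed retina 4 of 20 were higher with the inhibitor, against 0.129% of all tested genes. Among them were the transcription factor genes Pou4f1 (1.39 ± 0.23, adjusted p = 0.0108, edgeR) and Isl2 (1.37 ± 0.19, adjusted p = 0.0032). The number of 4 was 1 without crushed vehicle 1 and 2 without crushed vehicle 3 or crushed DLKi 2, 3 or 5. The summed levels of the crushed groups overlapped, and the part of ganglion cell number in the inhibitor effect was not tested.

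Surface epithelium of the cornea, conjunctiva or skin expresses SPRR and junction genes, so its markers were measured too. Summed over 18 markers, all of them read in at least 1 library, they were 8.15 to 14.2 CPM in uncrushed vehicle, 8.46 to 11.3 in crushed vehicle and 5.94 to 11.5 in uncrushed DLKi retina. In crushed DLKi libraries 1 to 5 they were 17.0, 14.8, 88.7, 8.57 and 164. Libraries 3 and 5 stood far above all others, and the range in crushed vehicle retina lay within that in uncrushed vehicle retina. After crush with the inhibitor 9 of 16 tested markers were called higher (median log2 change 2.85) and with vehicle 0 of 16 (edgeR; 0 at an unadjusted p under 0.05, 0 by DESeq2; median -0.39). Of all tested genes 3.29% were called higher with the inhibitor and 1.77% with vehicle. The number of 9 was 2 without crushed DLKi 5 or uncrushed DLKi 2 or 3, 4 without crushed DLKi 3 or uncrushed DLKi 4, and 1 without both epithelium-rich retinas. In the inhibitor comparison of crushed retina 0 of 16 were called by edgeR (13 at an unadjusted p under 0.05, 4 by DESeq2; median 3.2), with the basal keratin gene Krt5 at 5.79 ± 1.55 (adjusted p = 0.107).

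The epithelium-rich retinas 3 and 5 held the lowest pair of crushed DLKi levels for Sprr2g, Cdsn and Lad1, retina 3 was the lowest for Avil, and for Sprr1a both were below retinas 1 and 2. The lowest Sprr1a level of all crushed retinas, 9.495 nRPKM, was in crushed DLKi 4, which had the lowest epithelium marker sum of the crushed DLKi retinas. Without retinas 3 and 5 the inhibitor change of Sprr1a in crushed retina was -0.78 (adjusted p = 0.294, edgeR) and that of Sprr2g was -3.28. That of Avil was 0.13 (adjusted p = 0.791), that of Cdsn was -0.29 (adjusted p = 0.61) and that of Lad1 was 0.05 (adjusted p = 0.944, edgeR). The part of surface epithelium in the levels of the 5 genes was not tested.

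**Figure D4:**
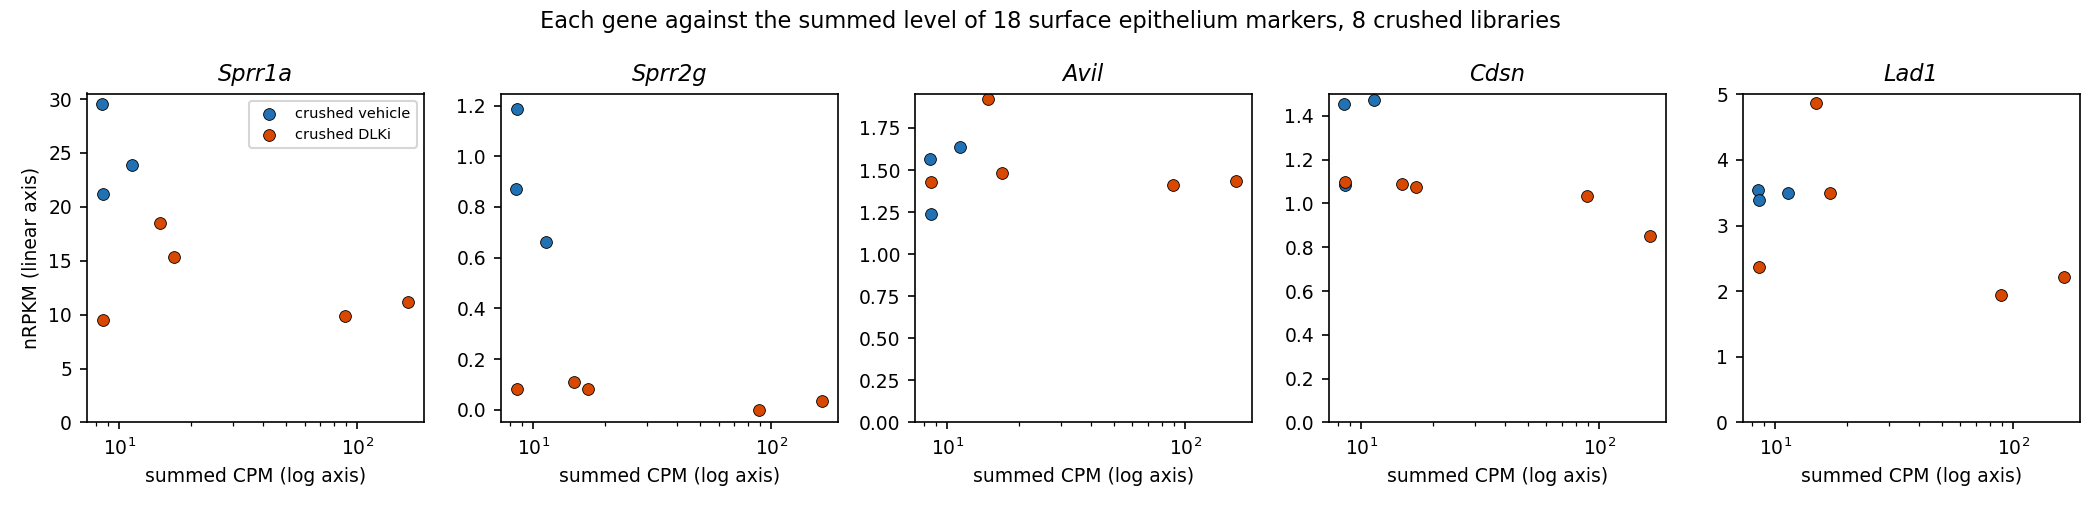
Level of each gene (nRPKM, linear axis) against the summed level of 18 surface epithelium markers (CPM, log axis) in the 8 crushed libraries; points are libraries, coloured by treatment. The 2 DLKi libraries at 88.7 and 164 are not the highest for any of the 5 genes.

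Microglia and macrophage markers were higher after crush under both treatments. With vehicle 7 of 16 were called higher (median log2 change 0.85) and with the inhibitor 12 of 16 (median 1.05), and in crushed retina 0 of 16 differed between inhibitor and vehicle (edgeR; 0 at an unadjusted p under 0.05, 0 by DESeq2; median 0.02). Of all tested genes 1.77% were called higher after crush with vehicle and 3.29% with the inhibitor. The microglia and macrophage sum was 109 to 133 CPM in crushed vehicle and 84.4 to 162 in crushed DLKi retina, against 69.2 to 70.9 and 50.5 to 79.2 before crush. For Avil, which marks sensory neurons and tuft cells elsewhere, 2 of 11 tested markers of those cells were called higher after crush with vehicle (median log2 change 0.03), against 1.77% of all tested genes. They were Calca, a neuropeptide gene of sensory neurons (1.38 ± 0.30, adjusted p = 0.0148, edgeR), and Sh2d6, a tuft cell gene (1.32 ± 0.34, adjusted p = 0.0464). With the inhibitor 1 of 11 was called higher (median log2 change -0.08), against 3.29% of all tested genes. That gene was Calca (1.22 ± 0.23, adjusted p = 0.0026, edgeR). The part of these cells in the levels of the 5 genes was not tested.

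Across all 16 libraries the genes most like the 5 were ranked by the Pearson correlation of log2 CPM, which mostly reflects the 4 group means that all these genes share. For Sprr1a they were Hrk, a pro-apoptotic BH3-only gene (r = 0.991), the macrophage metalloproteinase gene Mmp12 (0.991), the collectin gene Colec10 (0.982), Avil (0.979) and the homeobox gene Hoxb9 (0.976). With the group means taken out, these correlations were 0.34 to 0.48. For Avil the closest were Colec10 (0.989), Mmp12 (0.989) and Ecel1 (0.987), and for Cdsn Hoxb9 (0.973), Ecel1 (0.970) and Colec10 (0.969). Ecel1, like Avil, did not differ detectably between inhibitor and vehicle in crushed retina (log2 change 0.09 ± 0.17, adjusted p = 0.858, edgeR). Avil was used to choose it here, so this likeness is no separate result.

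Sprr2g and Lad1 had other companions. For Sprr2g they were Fam214b (r = 0.900), Adcyap1 (0.889) and Alkal2 (0.876), and all 3 were called lower with the inhibitor in crushed retina, at -0.38 ± 0.07 (adjusted p = 0.0202), -0.97 ± 0.13 (adjusted p = 0.00226) and -1.24 ± 0.24 (adjusted p = 0.0284, edgeR). Sprr2g was used to choose them, so their direction is no separate result. For Lad1 they were Stat3 (0.990), the kinase gene Jak3 (0.986) and Hrk (0.983). Stat3 and Jak3 also followed Lad1 from library to library once the group means were removed (r = 0.86 and 0.83 over 16 libraries), with Lad1, Stat3 and Jak3 all highest in crushed DLKi 2. Avil, Colec10 and Ecel1 were highest there too. Stat3 and Jak3 were chosen on these same libraries, so their r with group means removed is no separate result. Among the 5 genes themselves, r was 0.936 to 0.979 between Sprr1a, Avil, Cdsn and Lad1, and 0.616 to 0.705 between Sprr2g and each of them. The genes were chosen on their levels before and after crush, so high values follow from the choice. With the group means taken out, r was -0.02 to 0.44 between those genes, and -0.09 to 0.49 between Sprr2g and each of them.

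**Figure D5:**
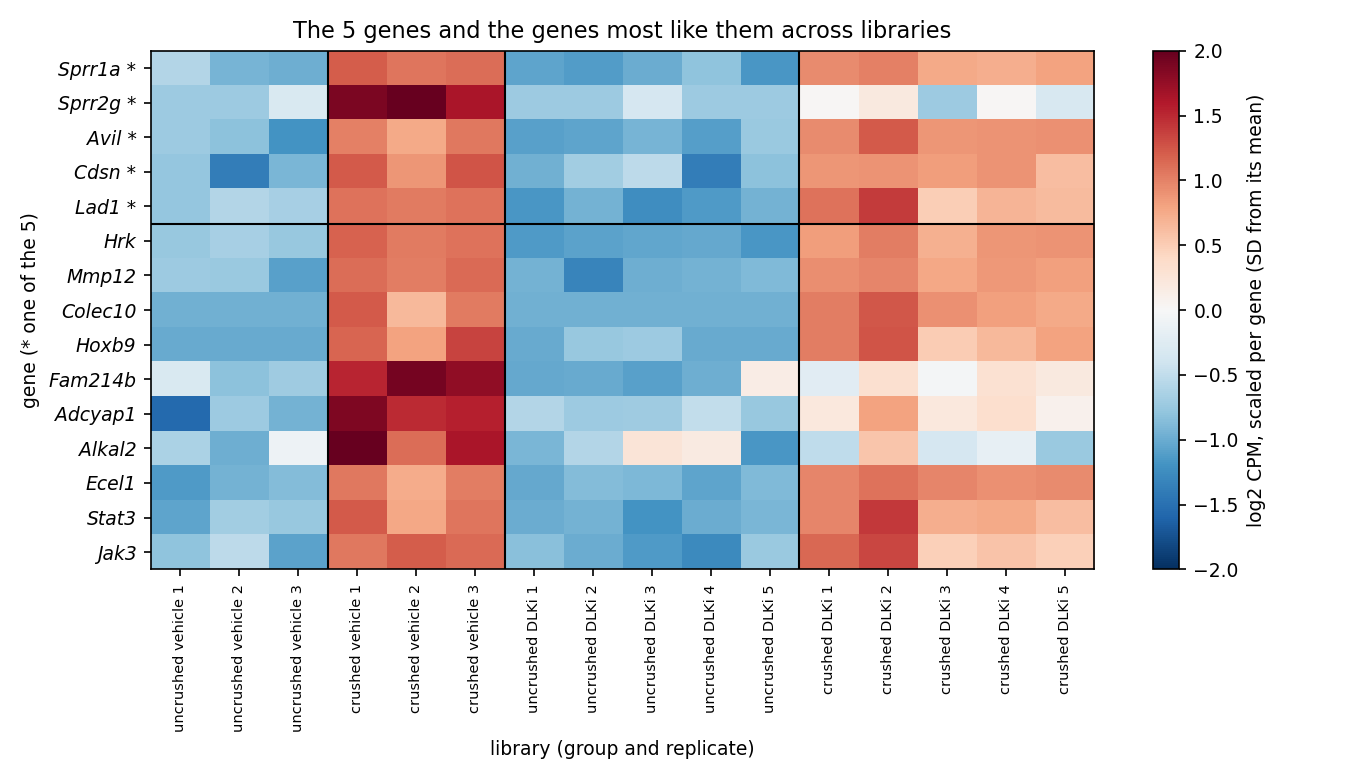
Log2 CPM of the 5 genes (starred, above the line) and of the genes most like them, scaled per gene in SD from its mean over the 16 libraries, with libraries as columns in the order of the 4 groups. Sprr2g, Fam214b, Adcyap1 and Alkal2 are reddest in the 3 crushed vehicle columns and paler or blue in the crushed DLKi columns, whereas the other genes are red in both crushed groups.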

How the data were processed

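Poly(A) RNA of 16 mouse retinas was made into TruSeq RNA v2 libraries from 0.5 µg of RNA each and sequenced as single reads of 50 bases, per the labels' protocols. The authors' deposited counts are reads aligned uniquely to each gene model, and their nRPKM is an RPKM adjusted by a size factor per library, per the file headers. GSNAP and GRCm38 were used, per the submitters' processing notes; for versions, annotation and the size factor's method the sources used here state nothing. Groups came from the labels for eye and drug. The labels state 5 mice per drug, but the 16 libraries held 3 per vehicle group.

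Entrez identifiers were matched to RefSeq symbols (31049 of 36528; the other 5479 held 1.098% to 1.216% of counts). Counts were tested with edgeR 4.0.16 (R 4.3.3; TMM, filterByExpr, quasi-likelihood, a mean per group, all 16 libraries, 12 residual degrees of freedom), two-sided, with Benjamini-Hochberg adjustment over 19391 genes and a threshold of 0.05; errors of log2 changes are SE, and that of the difference of crush effects is the root of the summed squares of both crush SE. Ratios of 2 genes used log2(nRPKM + 0.1). No 2 replicates were copies (chi-square per degree of freedom 6.73 to 42.84). The fit was tested on simulated counts. Alternatives were DESeq2 1.42.0, its size factors, no filter, only the groups compared and leaving out libraries; 3, among them a block by consecutive sample numbers, were chosen after seeing the data.

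The 5 genes and the 15 gene lists (257 genes) were chosen with earlier results of these data known. Named were the 5 genes, from each list up to 4 called genes with the smallest p (or 2 where 0 were called), the 5 genes most like Sprr1a and the 3 most like each other gene, and the nearest tested neighbours.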

Additional observations from a re-analysis of the deposited data

Results flagged for a closer look

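In the 10 groups of 5 libraries formed by 5 genes and 2 DLKi groups, 3 held a library whose gap to its nearest neighbour was large for the range of the group by Dixon's test at the 95% level; chance gives about 1 in 20 groups. Avil was 1.921 nRPKM in crushed DLKi 2, above 1.413 to 1.483 in the other 4 (gap of 0.861 of the range). Cdsn was 0.852 nRPKM in crushed DLKi 5, below 1.036 to 1.098 in the others (0.747 of the range). Sprr2g was 0.034 nRPKM in uncrushed DLKi 3, which is 1 read, and 0 in the others, so that its gap equals the range by construction and says nothing about the spread.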

How the results depend on the processing

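Of 31 results on the 5 genes, recomputed 562 times, 526 values kept direction and side of the threshold. The labels give no replicate numbers and do not say which retinas share a mouse, but the titles hold sample numbers in which a crushed and an uncrushed retina of the same drug follow each other. A fit with these 8 pairs as a replicate block, chosen after seeing the data, changed no call on the 5 genes: the difference of crush effects was -0.06 for Sprr1a, 0.15 for Avil, -0.60 for Cdsn and 0.34 for Lad1 (adjusted p = 0.977 to 0.997, edgeR, 6 residual degrees of freedom). Deviations from the group means correlated at 0.04 to 0.44 within pairs, above 0.1 in 6 of 8, and 7 of 8 crushed libraries correlated best with their own pair, a hint from the data and not the design. With this block 1234 genes instead of 510 were called after crush with vehicle and 2080 instead of 1034 with the inhibitor; list counts that moved were 1 desmosome gene higher and 1 axon injury gene lower with vehicle, and 1 cornified envelope gene higher and 1 basement membrane zone gene in each direction with the inhibitor. The inhibitor change of Sprr1a in crushed retina kept its direction but lost its call with only the crushed groups fitted (-0.95), without the 2 shallowest vehicle libraries (-0.97) and without the 2 epithelium-rich DLKi libraries (-0.78), and in 11 of the 16 fits leaving out 1 library, in all of which the value was -1.12 to -0.80. Its crush effect with vehicle was 7.89 without those vehicle libraries and 6.95 to 7.87 with 1 library left out. Values that did not pass the test and changed sign were the Sprr1a difference of crush effects (0.01 by DESeq2, 0.15 without the epithelium-rich libraries, -0.65 to 0.44 with 1 library left out), Avil in crushed (-0.05 to 0.14) and uncrushed retina (-0.27 to 0.01, and 0.01 without the shallowest libraries), Lad1 in crushed retina (0.05 without the epithelium-rich libraries), and, with a pseudocount of 1, the ratios of Sprr1a to Sprr2g (-0.09) and Cdsn to Lad1 (0.02; -0.17 to 0.13 with 1 library left out). With a library left out no pair of genes could pass, since the smallest exact p was 0.0571 or 0.0952.

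Counts of called list genes moved as follows. With only the groups compared, villin family genes higher after crush with vehicle went to 0, surface epithelium markers higher with the inhibitor to 3, and in crushed retina axon injury genes lower to 2 and ganglion cell markers higher to 2. Without the shallowest vehicle libraries these were 0 for the villin family, 1 axon injury gene lower after crush with vehicle (also 1 with no filter and 1 by DESeq2) and 2 ganglion cell markers. Without the epithelium-rich libraries desmosome genes were 0 and epithelium markers 1 after crush with the inhibitor, and in crushed retina axon injury genes 2, ganglion cell markers 1 and AP-1, ATF and STAT factors 1. DESeq2 called 1 basement membrane zone gene after crush with vehicle, and in crushed retina 1 villin family gene lower, 4 epithelium markers, 1 rod marker and 1 sensory or tuft cell marker higher. Leaving out 1 library gave 0 to 1 for villin family and basement membrane zone genes higher and axon injury genes lower after crush with vehicle; 0 to 1 for cornified envelope and desmosome genes and 2 to 11 for epithelium markers after crush with the inhibitor; and in crushed retina 0 to 1 villin family genes lower, 2 to 4 axon injury genes, 0 to 1 epithelium markers, 1 to 6 ganglion cell markers and 1 to 2 AP-1, ATF and STAT factors.

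Counts over all tested genes moved more. In crushed retina 98 genes differed between inhibitor and vehicle, 420 by DESeq2, 45 with the crushed groups alone, 53 without the shallowest and 9 without the epithelium-rich libraries, and 22 to 144 with 1 library left out. In uncrushed retina it was 122 genes, and 625, 3, 11, 51 and 17 to 205 in the same order. The difference of crush effects held 2 genes, 5 by DESeq2 and 1 without either pair of libraries. The crush effect with vehicle held 510, 281 with its groups alone and 276 to 506 with 1 library left out. Depth limits Sprr2g and uncrushed Sprr1a, which rest on few reads. The cause of these changes was not tested beyond the smaller number of libraries.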

Other observations

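Lad1 has a neighbour that moved with it. Tnnt2, the troponin T gene of heart muscle, begins 2974 bases beyond Lad1, and it rose after crush by 2.01 ± 0.22 on the log2 scale with vehicle (adjusted p = 3.93e-05, edgeR) and by 1.66 with the inhibitor (adjusted p = 9.73e-06), with a log2 change of -0.40 between inhibitor and vehicle in crushed retina (adjusted p = 0.323). Tnni1, on the other side of Lad1, was not called (0.01 ± 0.51 with vehicle, adjusted p = 0.999, edgeR). The neighbours of Avil did not change detectably after crush with vehicle: Ctdsp2, 90 bases away, had a log2 change of 0.07 ± 0.08 (adjusted p = 0.941), and Tsfm, which shares bases with Avil, had 0.01 ± 0.11 (adjusted p = 0.998, edgeR). Psors1c2, next to Cdsn, had -0.15 ± 0.62 (adjusted p = 0.99), and Lor and Tchh, the nearest tested genes outside Sprr2g and Sprr1a, had -0.16 ± 0.25 (adjusted p = 0.96) and 0.04 ± 0.27 (adjusted p = 0.996).

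Other cell type lists were measured beside the 5 genes. In crushed retina 0 of 14 rod and 0 of 10 Müller glia markers differed between inhibitor and vehicle (edgeR; 2 and 0 at an unadjusted p under 0.05, 1 and 0 by DESeq2). After crush with vehicle 1 of 14 rod markers was called, the phosducin gene Pdc (-0.64 ± 0.16, adjusted p = 0.0369, edgeR), and 2 of 10 Müller glia markers, Crym (1.00 ± 0.18, adjusted p = 0.00383) and Vim (0.82 ± 0.16, adjusted p = 0.00643). In that comparison 1.77% of all tested genes were called higher and 0.861% lower. Of 10 neutrophil and monocyte markers 1, Csf3r, was tested, and it was not called (0.66 ± 0.27, adjusted p = 0.314). Lens markers varied widely, with sums of 3.74 to 341 CPM in uncrushed vehicle, 2.88 to 28.4 in crushed vehicle, 22.4 to 805 in uncrushed DLKi and 5.26 to 34.9 in crushed DLKi retina. After crush with the inhibitor 8 of 14 were called lower, against 2.04% of all tested genes.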
